A study of Mus musculus with 6 samples.

Results

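The 9 genes described here encode 6 matrix metalloproteinases (MMPs), Mmp2, Mmp9, Mmp12, Mmp13, Mmp14 and Mmp19, and 3 tissue inhibitors of metalloproteinases, Timp1, Timp2 and Timp3. They were taken by the gene name given in the scanner files, and are 9 of the 27361 gene names on the array. The study deleted the transcription factor gene Foxo1 in mouse myeloid cells (C57BL/6) and measured RNA of bone marrow-derived macrophages, grown for 7 days with 10% of L929-conditioned medium, on 1-colour Agilent arrays. Control cells (WT) carried the floxed Foxo1 alleles (FoxO1 Fl/Fl) and no Cre, and knockout cells (KO) carried the same floxed alleles with Cre recombinase expressed from the lysozyme M locus (LysMcre FoxO1 Fl/Fl), so that the deletion and the presence of Cre cannot be told apart. M0 cells were left unstimulated. Lipopolysaccharide (LPS, 100 ng/ml) together with interferon-gamma (20 ng/ml) was given to M1 cells, and IL-4 together with IL-13 (10 ng/ml of each) to M2 cells, for 24 hours in both cases. Each of the 6 combinations had 1 array. WT and KO cells differ in genotype and so cannot come from the same animal. The labels do not say whether the states of a genotype came from separate animals. The spread below may thus hold no variation between animals of a genotype.

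MMPs are zinc-dependent endopeptidases that cut collagens, elastin, proteoglycans, cytokines and receptors outside the cell. Most are made as inactive proenzymes, in which a cysteine of the propeptide blocks the zinc until it is cut or displaced. TIMPs bind the active site and block it, and TIMP2 together with the membrane-bound MMP14 also serves to activate proMMP2 at the cell surface. Macrophages secrete several of these enzymes during tissue remodelling, and MMP12 was first described as the macrophage metalloelastase.

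Levels are given as the processed signal in array units or as log2 of that signal relative to the array's 75th percentile, which ran from 532 to 627 units. All 9 genes were well above background on all 6 arrays, none was saturated, and all were among the 19044 genes tested. A level belongs to its probe, so levels of different genes are not compared. The cells matched their labels: all 8 macrophage markers were well above background on every array, the summed signal of 9 M1 markers was 627 and 868 times the 75th percentile on the M1 arrays against 1.70 to 7.82 on the others, and that of 9 M2 markers was 818 and 650 on the M2 arrays against 2.04 to 25.8. Foxo1 itself read 1144 to 1559 units on the WT arrays and 165 to 282 on the KO arrays, although the part of the gene that is deleted is not named, and its log2 difference of KO from WT was -2.92, -2.78 and -2.65 in M0, M1 and M2. Transcripts typical of liver were most widely detected on 2 arrays. Of 12 liver markers, 12 were well above background on WT M0 and 10 on KO M1, against 4 to 7 on the other arrays. Their levels were lower on KO M1 than on WT M0, at -2.37 against 3.48 for Alb and -2.16 against 1.74 for Ahsg. The WT M0 and WT M1 arrays lay on 1 slide and the other 4 on another, so M1 minus M0 was measured within a slide in each genotype, while of the KO and WT pairs the M2 pair alone shared a slide.

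**Figure D1:**
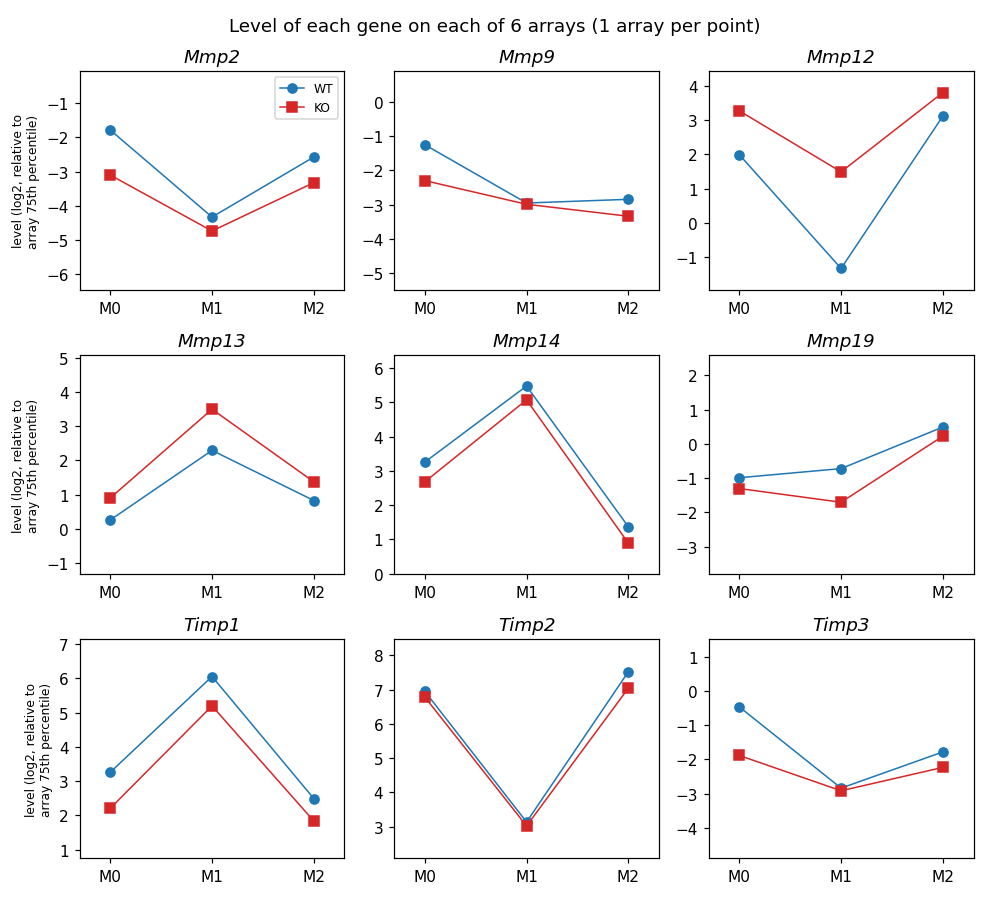
Level of each of the 9 genes on the 6 arrays, as log2 processed signal relative to the array's 75th percentile, against polarization state; each point is 1 array, circles are WT and squares are KO, and every panel spans the same number of log2 units. Mmp13, Mmp14 and Timp1 are highest on both M1 arrays, and Timp2, Mmp12, Mmp2 and Timp3 are lowest on both.

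The comparison of M1 with M0 asks how the protease and inhibitor genes respond to LPS with interferon-gamma. The collagenase gene Mmp13, the membrane-type gene Mmp14 and the inhibitor gene Timp1 rose in M1, and Mmp2, Mmp12, Timp2 and Timp3 fell. Thus 3 of 9 genes rose and 4 fell at an adjusted p below 0.05 in limma, where 11.6% of all genes tested rose and 14% fell. The median absolute difference of the 9 genes was 2.31 log2 units, against 0.53 over all genes tested. The 9 genes were chosen with earlier results of these data known. They were also well above background on every array, which not all genes tested were. Set against all genes, here and below, their counts and medians are therefore descriptions. Each WT and KO pair moved the same way for 8 of the 9 genes, Mmp19 being the exception. The share of all genes that did so is not given here, so this count is a description. With 1 array per combination, the error of this test is how far KO minus WT varies over the 3 states. It is drawn towards a prior spread taken from all genes. The adjusted p-values measure no spread between replicate cultures. Leaving out any 1 of the M0 or M1 arrays left 0 of the 9 genes, and 0 of all genes, past the threshold.

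Mmp14 encodes a membrane-anchored collagenase that also activates proMMP2. Its signal was 5066 units on WT M0 and 3833 on KO M0, and rose to 26123 on WT M1 and 19588 on KO M1, while the M2 arrays read 1418 and 1157. Both M1 arrays stood above both M0 arrays, which stood above both M2 arrays, with no overlap. M1 exceeded M0 by 2.31 ± 0.15 log2 units (SE), a 4.96-fold change (adjusted p = 0.00766 in limma), and by 2.22 in WT and 2.40 in KO. It was read by a probe at chr14:55059969-55060028 (mm9), and a further probe at chr14:55058775-55058834 gave a mean difference of 2.73. WT and KO kept nearly the same profile over the states, and the residual SD of 0.06 was the smallest of the 9 genes.

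Mmp13 encodes the main interstitial collagenase of rodents. Its signal was 637 units on WT M0, 1122 on KO M0, 979 on WT M2 and 1625 on KO M2, and reached 2883 in WT and 6574 in KO on the M1 arrays. The M1 arrays were the highest in both genotypes, and the M0 and M2 arrays overlapped. M1 exceeded M0 by 2.31 ± 0.23 log2 units (SE), a 4.97-fold change (adjusted p = 0.0116 in limma), with 2.03 in WT and 2.59 in KO. Its probe maps to chr9:7282762-7282821 (mm9).

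Timp1 encodes a secreted, inducible inhibitor of most MMPs. Its signal was 5077 units on WT M0 and 2760 on KO M0, against 38977 on WT M1 and 21328 on KO M1, and the M2 arrays read 3089 and 2229. The M1 arrays again stood apart from all others. M1 exceeded M0 by 2.90 ± 0.18 log2 units (SE), a 7.44-fold change (adjusted p = 0.00712 in limma), with 2.80 in WT and 2.99 in KO. These values are from a probe at chrX:20451675-20451733 (mm9), and a further probe at chrX:20449905-20449964 gave a mean difference of 2.97.

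Of the 9 genes, 6 had a promoter in a table from RefSeq (GRCm38.p6; Mmp12, Mmp13, Mmp14, Timp1, Timp2 and Timp3). The 250 bases upstream of the transcription start are shown for the 3 genes that rose together in M1 and for Timp2, which fell most, so that their base composition and motifs can be set side by side. They are written 5′ to 3′ on the gene's strand in lower case, with the AP-1 motif (TGACTCA, or TGAGTCA on the other strand) and the TATA motif (TATAAA) in capitals. Their positions are chr9:7272264-7272513 (plus strand) for Mmp13, chr14:54431348-54431597 (plus) for Mmp14, chrX:20869916-20870165 (plus) for Timp1 and chr11:118355412-118355661 (minus) for Timp2.
Mmp13: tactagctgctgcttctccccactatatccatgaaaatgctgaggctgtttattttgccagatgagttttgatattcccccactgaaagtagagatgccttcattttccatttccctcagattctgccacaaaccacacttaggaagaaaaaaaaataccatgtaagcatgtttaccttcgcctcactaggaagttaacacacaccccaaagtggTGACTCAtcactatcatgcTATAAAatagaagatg
Mmp14: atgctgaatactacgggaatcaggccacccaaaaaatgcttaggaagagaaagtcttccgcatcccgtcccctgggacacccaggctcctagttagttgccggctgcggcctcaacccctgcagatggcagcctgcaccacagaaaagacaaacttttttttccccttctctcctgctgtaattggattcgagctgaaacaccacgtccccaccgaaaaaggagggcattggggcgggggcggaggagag
Timp1: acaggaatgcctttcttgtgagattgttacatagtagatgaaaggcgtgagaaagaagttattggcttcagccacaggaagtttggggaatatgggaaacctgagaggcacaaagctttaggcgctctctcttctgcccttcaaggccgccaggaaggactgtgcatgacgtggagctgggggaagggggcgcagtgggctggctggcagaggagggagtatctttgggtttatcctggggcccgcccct
Timp2: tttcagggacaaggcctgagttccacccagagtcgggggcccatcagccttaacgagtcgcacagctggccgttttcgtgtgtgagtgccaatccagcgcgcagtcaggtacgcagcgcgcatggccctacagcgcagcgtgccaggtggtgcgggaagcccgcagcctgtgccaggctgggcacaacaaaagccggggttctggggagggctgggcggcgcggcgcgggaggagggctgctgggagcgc
Mmp13 was the single gene among these 4 with either motif in this window. Its AP-1 match, the binding sequence of Fos and Jun dimers, lies 35 to 29 bases before the start and its TATA match 16 to 11 bases before it. An AP-1 match was present in 4.46% of 32851 promoters of the same length and a TATA match in 12.4%, both strands being searched. The forkhead motif TGTTTAC, the sequence class bound by FoxO factors, was found in 3.17% of promoters and, among the 6 genes, 81 to 75 bases before the start of Mmp13. An AP-1 match (TGAGTCA) also lay 44 to 38 bases before the second of 2 annotated starts of Mmp12. The NF-kB motif GGANTTTCC (1.07% of promoters), the interferon-type STAT motif TTCNNNGAA (7.02%) and the STAT6 spacing of TTC and GAA with 4 bases between (5.85%) were not found in these windows for any of the 6 genes. The window of Mmp13 had a GC content of 40.4% and those of the first and second Mmp12 start 40.0% and 39.6%, those of Mmp14 and Timp1 55.2% and 54.4%, and those of Timp2 and Timp3 68.0% and 65.6%, against a median of 52.4% over all promoters.

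The largest fall was that of Timp2, whose product inhibits MMPs and takes part in activating proMMP2. Its signal was 65896 units on WT M0, 66228 on KO M0, 101338 on WT M2 and 82665 on KO M2, against 5160 (WT) and 4727 (KO) in M1. Both M1 arrays lay far below the other 4, and within each state WT and KO read close to each other. M1 was lower than M0 by 13.9-fold, a log2 difference of -3.79 ± 0.18 (SE, adjusted p = 0.00681 in limma), with -3.82 in WT and -3.77 in KO. The Timp2 probe maps to chr11:118163146-118163205 (mm9). Timp1 and Timp2 thus changed in opposite directions under the same treatment.

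Mmp12 encodes macrophage elastase. Its signal was 2117 units on WT M0 and 5795 on KO M0, 234 on WT M1 and 1636 on KO M1, and 4790 on WT M2 and 8766 on KO M2. The M1 array was the lowest of each genotype, and KO M1 lay close below WT M0. The log2 difference between M1 and M0 was -2.55 ± 0.58 (SE, adjusted p = 0.0489 in limma), a 5.87-fold fall that was 10.0-fold in WT and 3.44-fold in KO. Mmp12 had the largest residual SD of the 9 genes, 0.78. The WT M0 and KO M1 arrays had the most liver markers above background. Without them M1 minus M0 was -3.92, a value with no test. No genotype then has both an M0 and an M1 array, so this value runs through the M2 arrays and across slides. The call was lost with normexp background correction and with no filter on dim probes. The probe maps in parts within chr9:7354810-7355325 (mm9), and its 60 bases thus span 516 bases of genome.

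Mmp2 encodes gelatinase A, a protease of denatured collagen and basement membrane that fibroblasts make in quantity. Its signal was 154.8 units on WT M0, 70.1 on KO M0, 92.7 on WT M2 and 62.8 on KO M2, and fell to 29.3 (WT) and 21.9 (KO) in M1. Both M1 arrays were lowest, and the M0 and M2 arrays overlapped. M1 was lower than M0 by 4.25-fold, a log2 difference of -2.09 ± 0.28 (SE, adjusted p = 0.0177 in limma), with -2.54 in WT and -1.63 in KO, and the call was lost with normexp background correction. Mmp2 was read by a probe at chr8:95376840-95376899 (mm9).

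Timp3 encodes an inhibitor that binds to the extracellular matrix and also blocks ADAM17. Its signal was 385 units on WT M0 and 162 on KO M0, 160 on WT M2 and 133 on KO M2, and 82.1 on WT M1 and 77.2 on KO M1. WT M0 stood apart at the top, and both M1 arrays were lowest. The log2 difference between M1 and M0 was -1.70 ± 0.38 (SE, adjusted p = 0.0479 in limma), a 3.25-fold fall that was 5.18-fold in WT and 2.04-fold in KO. With no filter on dim probes the call was lost, and a term for the slide gave an adjusted p of 0.0624. Its probe is at chr10:85811696-85811755 (mm9).

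The summed signal of stromal cell markers, like Mmp2 and Timp3, was highest on WT M0. Of 16 stromal markers, 14 to 15 were well above background on each array, Lum and Twist1 being dim on most. Their summed signal, in multiples of the 75th percentile, was 20.2 on WT M0, 7.44 on KO M0, 10.7 on WT M2, 5.13 on KO M2, and 8.77 (WT) and 5.99 (KO) on the M1 arrays. The lowest sum was on KO M2, and Mmp2 and Timp3 were lowest on the M1 arrays. The median level of the stromal markers was lowest on KO M1 (-3.93), followed by KO M2 (-3.71) and WT M1 (-2.95). Between M0 and M1, 10 of the 16 fell and 1, Fap, rose by 3.23 (median difference -1.23). In bulk RNA, fewer cells of a type and less RNA per cell cannot be told apart, and the part of stromal cells in the values of Mmp2 and Timp3 was not tested. The genes whose level over the 6 arrays was most like that of Timp3 were Plac9a, Ddah1 and Ptprk (root mean square difference of centred levels 0.064, 0.113 and 0.114 log2 units), and Cdr2l and Ccdc80 were among the 3 most like Mmp2 (0.147 and 0.159), among 15876 genes above background everywhere. This likeness covers 6 arrays that share their scaling, and is a description.

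**Figure D2:**
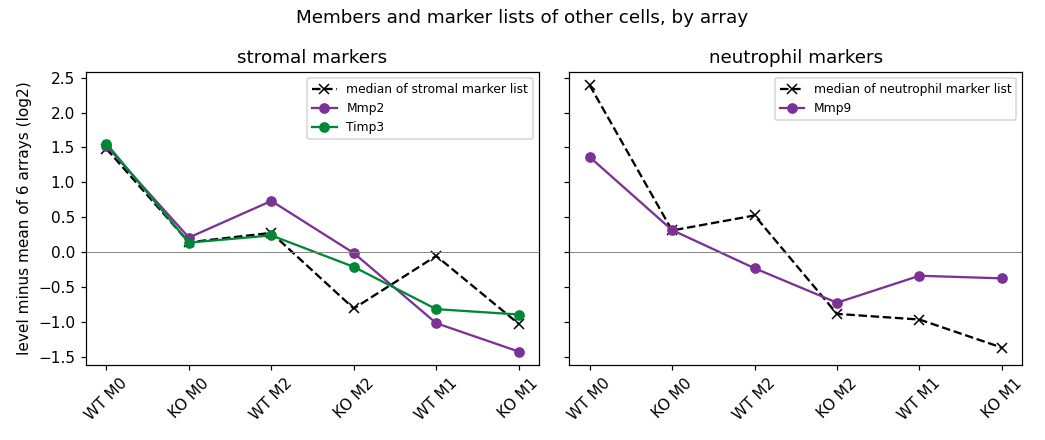
Level of Mmp2 and Timp3 (left) and Mmp9 (right) on each array minus the gene's mean over the 6 arrays, in log2 units, with the median of the 16 stromal or 12 neutrophil markers treated the same way (dashed line). All 3 genes and both marker lists are highest on WT M0.

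Mmp9, gelatinase B, is stored in neutrophil granules and also made by macrophages. Its signal was 223.8 units on WT M0 and 122.1 on KO M0, 75.9 on WT M1 and 73.4 on KO M1, and 76.7 on WT M2 and 62.0 on KO M2. Both M0 arrays were above the other 4, which lay close together. M1 minus M0 was -1.20 ± 0.30 log2 units (SE, adjusted p = 0.0582 in limma), which missed the threshold, with -1.70 in WT and -0.69 in KO. The probe of these values is at chr2:164780303-164780362 (mm9). A further probe, at chr2:164780620-164780679, is spotted 10 times on each array. It read 142 units on WT M0, 61.6 on KO M0, 18.3 on WT M1, 15.3 on KO M1, 34.4 on WT M2 and 17.6 on KO M2, with a coefficient of variation between its spots of 4.32% on KO M0, the lowest, to 21.99% on KO M1. It gave a mean M1 minus M0 of -2.54, and with the mean of both probes Mmp9 passed (log2 difference -1.87, adjusted p = 0.0272 in limma), as it did when genes dim on any array were left out (adjusted p = 0.0372) and with an intensity trend in the variance prior. Of 12 neutrophil markers on the array, 12 were well above background on WT M0 and WT M2 and 7 to 9 on the other arrays, and their summed signal was 84.2 on WT M0, 16.3 on KO M0, 20.3 on WT M1, 13.1 on KO M1, 30.4 on WT M2 and 8.18 on KO M2. On the M1 arrays most of that sum came from Lcn2 and Csf3r. Between M0 and M1, 4 of the 12 fell and 1, Lcn2, rose. Those of Ngp, Ltf and S100a9 were log2 differences of -5.58, -4.72 and -5.39. The part of these markers in the Mmp9 values was not tested. The genes most like Mmp9 over the arrays were Slit2, Thbs2 and Enah (0.105, 0.117 and 0.120 log2 units).

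Mmp19, a secreted MMP that cuts basement membrane components, was the gene with the smallest difference between M1 and M0. Its signal was 269 units on WT M0 and 244 on KO M0, 357 on WT M1 and 179 on KO M1, and 777 on WT M2 and 735 on KO M2. The M0 values lay between the M1 values. The log2 difference was -0.07 ± 0.25 (SE, adjusted p = 0.871 in limma), and was 0.27 in WT and -0.40 in KO. The sign of this mean turned with median centring (0.16), with quantile normalization and with the authors' table. Mmp19 was read at chr10:128236221-128236280 (mm9).

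**Figure D3:**
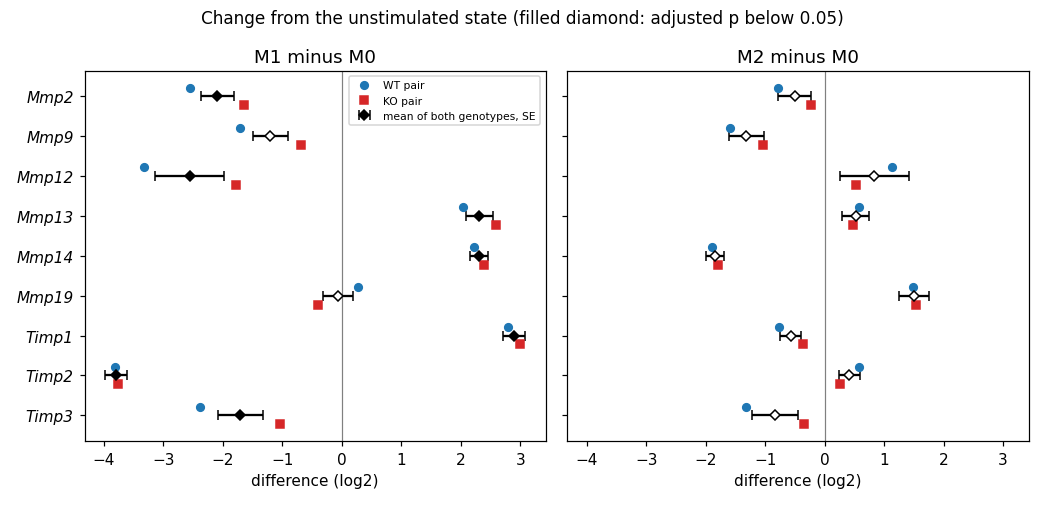
Difference of each gene from the unstimulated state, in log2 units, for M1 (left) and M2 (right); circles are the WT pair, squares the KO pair, and diamonds the mean of both with its SE, filled where the adjusted p in limma is below 0.05. In M1, 7 diamonds are filled and lie between -3.79 and 2.90; in M2 none is.

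The comparison of M2 with M0 concerns the response to IL-4 with IL-13. In it 0 of the 9 genes passed an adjusted p of 0.05 in limma, while 4 had an unadjusted p below 0.05. Over all genes tested 0.063% rose and 0.021% fell, 16 genes in all, while 3642 had an unadjusted p below 0.05. The 2 largest differences were those of Mmp14, lower in M2 by 3.58-fold (log2 difference -1.84 ± 0.15, SE, adjusted p = 0.0625), and Mmp19, higher by 2.84-fold (1.51 ± 0.25, SE, adjusted p = 0.115). For both, the WT and KO pairs agreed, at -1.89 and -1.79 for Mmp14 and 1.48 and 1.53 for Mmp19. The M0 and M2 arrays did not overlap for either gene, nor for Mmp9 and Timp2. The share of all genes without overlap is not given here. Mmp14 passed with median centring, quantile normalization, the authors' table, the stricter filter on dim probes and the intensity trend, and Mmp19 with the intensity trend. The KO values come from within 1 slide and the WT values from across slides.

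For Mmp9 M2 minus M0 was -1.32 ± 0.30 (SE, adjusted p = 0.156 in limma), and -1.59 in WT against -1.04 in KO. For Timp1 it was -0.57 ± 0.18 (SE, adjusted p = 0.228), and the arrays of the states overlapped. The other 5 differences were 0.83 for Mmp12, 0.52 for Mmp13, 0.41 for Timp2, -0.51 for Mmp2 and -0.83 for Timp3, with adjusted p from 0.315 to 0.457. Markers of osteoclasts, which share the macrophage lineage, had a summed signal of 59.3 and 46.5 on the M2 arrays against 7.66 to 24.0 on the others, and their part in these values was not tested.

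The direct comparison of the polarized states asks which genes separate M1 from M2, and shares the M1 arrays with the comparison above. Mmp13, Mmp14 and Timp1 were higher in M1 and Mmp2, Mmp12, Mmp19 and Timp2 were lower, 3 and 4 of 9 genes, where 11.6% of all genes were higher and 13.8% lower. Mmp14 differed most among the genes higher in M1, by 17.7-fold (log2 difference 4.15 ± 0.15, SE, adjusted p = 0.00497 in limma), followed by Timp1 by 11.04-fold (3.46, adjusted p = 0.00547) and Mmp13 by 3.47-fold (1.79, adjusted p = 0.0164). Timp2 was 18.5-fold lower in M1 (log2 difference -4.21 ± 0.18, SE, adjusted p = 0.00509). Mmp12 was 10.4-fold lower (-3.38 ± 0.58, SE, adjusted p = 0.0275), and 21.9-fold in WT against 4.98-fold in KO. Mmp2 was 3.00-fold lower (-1.58, adjusted p = 0.0287) and Mmp19 2.97-fold lower (-1.57, adjusted p = 0.0242). Mmp9 (0.12, adjusted p = 0.787) and Timp3 (-0.87, adjusted p = 0.18) missed the threshold.

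In WT, M1 and M2 lay on different slides. With the slide as a block, which here gives the same fit as leaving out WT M2, Mmp13, Mmp14, Timp1 and Timp2 passed and Mmp2, Mmp12 and Mmp19 did not. Leaving out WT M1 or KO M1 left 0 of the 9 genes past the threshold, leaving out WT M0 or KO M0 left 3, and leaving out WT M2 or KO M2 left 4 and 5.

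In the order of levels over the 6 arrays, Mmp14 ran M1, M0, M2, with WT above KO in each state and every step between neighbours larger than its residual SD. Timp1 had its M1 arrays on top, followed by WT M0, WT M2, KO M0 and KO M2, also with every step larger than its residual SD of 0.14. Mmp13 ran KO M1, WT M1, KO M2, KO M0, WT M2 and WT M0, of which KO M0 and WT M2 were closer than its residual SD of 0.25. Timp2 ran M2, M0, M1, where KO M2 and WT M0, and both M1 arrays, were closer than its residual SD of 0.14. The residual SD is how far KO minus WT varies over the states, so a steady genotype difference makes it small. It is no measure of noise between arrays or cultures, and these steps between single arrays are descriptions. From the lowest to the highest array Mmp12 spanned 35.2-fold, Mmp14 24.1-fold, Timp2 22.7-fold and Timp1 18.7-fold, and the other 5 genes 4.25-fold to 9.42-fold.

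**Figure D4:**
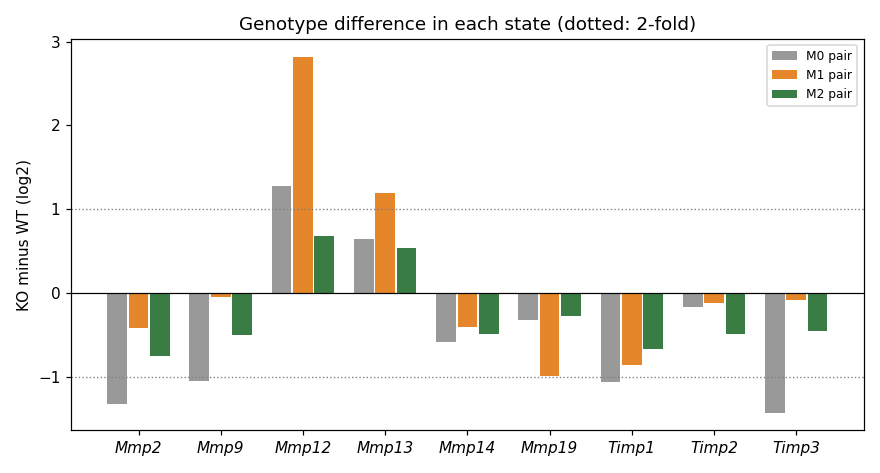
KO minus WT of each gene in each state, in log2 units; every bar is 1 KO array against 1 WT array and has no error, and the dotted lines mark 2-fold. Mmp12 and Mmp13 are above 0 in all 3 states and the other 7 genes below 0, and the highest bar is Mmp12 in M1 at 2.82.

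The comparison of KO with WT asks whether loss of Foxo1 changes these genes. Over the states 0 of 9 genes passed an adjusted p of 0.05 in limma, as did 0% of all genes tested, where the lowest adjusted p was 0.305. At an unadjusted p below 0.05, 5 of the 9 genes and 2156 of all genes would pass, and with an intensity trend in the prior 32 genes passed, 0 of these 9 among them. The values below are therefore descriptions of 6 arrays. Mmp12 and Mmp13 read higher in KO in all 3 states, and the other 7 genes lower in all 3, whereas of the 15877 genes above background on every array 22.3% were higher in all 3 states and 16.3% were lower. With normexp background correction, which moves the median KO minus WT of all genes in M0 to 0.36, 2 were higher and 4 lower in all states, as the M0 values of Mmp2 and Mmp19 turned to 0.12 and 0.09 and the M1 value of Timp2 to 0.0082.

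Mmp12 had the largest genotype difference. The KO array exceeded the WT array by 1.28 (M0), 2.82 (M1) and 0.69 (M2) log2 units, or 2.43-fold, 7.06-fold and 1.61-fold, with a mean of 1.59 ± 0.47 (SE, adjusted p = 0.41 in limma). The M2 pair, the only one within a slide, gave the smallest value. Mmp13 was higher by 0.64, 1.20 and 0.54 (mean 0.80 ± 0.19, SE, adjusted p = 0.381).

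Timp1 was lower in KO by a similar amount in each state, at -1.05, -0.86 and -0.66 (mean -0.86 ± 0.15, SE, adjusted p = 0.359 in limma), and its further probe gave -1.12, -0.89 and -0.76. Mmp14 differed by -0.58, -0.40 and -0.48 (mean -0.49 ± 0.13, SE, adjusted p = 0.39) and Timp2 by -0.17, -0.11 and -0.48. Mmp2 differed by -1.32, -0.41 and -0.75 (mean -0.82 ± 0.23, SE, adjusted p = 0.402), Timp3 by -1.42, -0.08 and -0.45 and Mmp9 by -1.05, -0.04 and -0.49. For these 3 genes the M0 pair differed most and the M1 pair least on this scale. With normexp correction that order held for Timp3 (-0.64, -0.12 and -0.30) and not for Mmp2 (0.12, -0.20 and -0.53) or Mmp9 (-0.06, -0.08 and -0.27). The median KO minus WT of all genes was then 0.36, 0.00076 and -0.10 in M0, M1 and M2. The values given are not relative to these medians, against which the order can differ. For Mmp19 the M1 pair differed most, at -0.32, -0.98 and -0.26.

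At a threshold of 2-fold in a single pair of arrays, Mmp12 was higher and Mmp2, Mmp9, Timp1 and Timp3 lower in M0, Mmp12 and Mmp13 were higher in M1, and no member of the set passed in M2. The share of all genes past 2-fold was 5.74% higher and 3.63% lower in M0, 9.23% higher and 1.04% lower in M1, and 2.36% higher and 3.89% lower in M2, among genes well above background on both arrays of the pair. Markers of other cell types differed too. The summed signal on the KO array was 0.37, 0.68 and 0.48 times that on the WT array for the stromal markers and 0.19, 0.64 and 0.27 times for the neutrophil markers in M0, M1 and M2, and 0.14, 0.39 and 0.31 times for 6 monocyte markers. In M1 most of the monocyte sum came from Ly6c2 (levels 7.46 in WT and 6.06 in KO). Of the 6 monocyte markers Vcan alone read higher in KO there, by 0.92. Most of the neutrophil sum in M1 came from Lcn2 and Csf3r. That list went both ways in M1, with S100a8 and Mpo higher in KO and S100a9 and Ngp lower. The part of these markers in the genotype values of Mmp2, Mmp9 and Timp3 was not tested.

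Other genes of the protease system were described by fixed lists, of which 0 genes passed for M2 against M0 or for KO against WT. Of 17 other MMP genes 15 were on the array and 8 were tested. In M1 against M0 Mmp25 rose and Mmp8, Mmp11 and Mmp23 fell. Mmp25, a membrane-anchored MMP of leukocytes also called leukolysin, was well above background on the M1 arrays alone, at least 186-fold above M0 and at least 167-fold above M2. It entered the test through those 2 arrays, so its place among the genes tested rests on the group where it is high. Mmp11 fell by 3.01 log2 units (adjusted p = 0.0173), Mmp8, the neutrophil collagenase, by 1.74 (adjusted p = 0.0455) and Mmp23 by 1.60 (adjusted p = 0.0441). Mmp1a, Mmp3, Mmp7, Mmp15, Mmp16, Mmp20 and Mmp21 were well above background on fewer than 2 arrays.

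**Figure D5:**
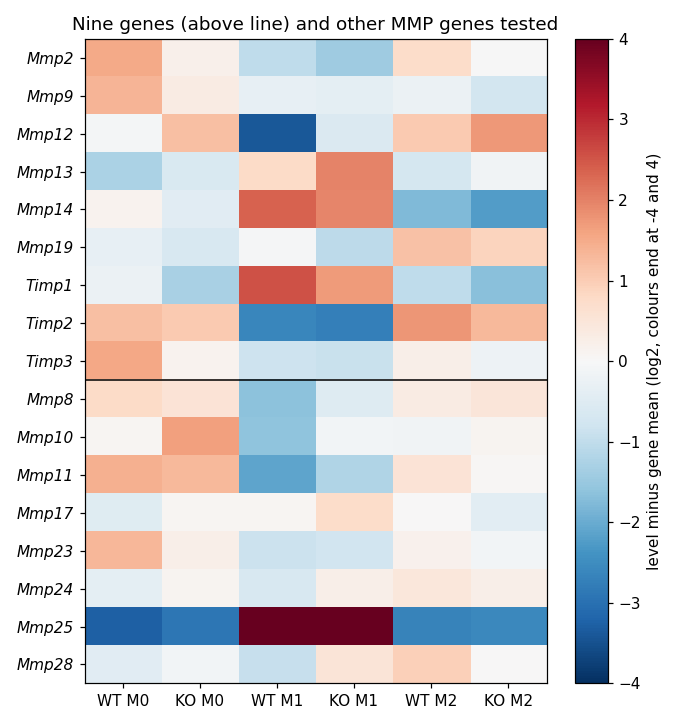
Level of the 9 genes (above the line) and of the 8 other MMP genes tested (below it) on each array minus the gene's mean, in log2 units, with colours ending at -4 and 4; each cell is 1 array. Mmp25 is well above background in M1 alone, and its cells at the other arrays show values that are not well above background.

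Of 9 other inhibitors tested, Pcolce, an enhancer of procollagen processing, fell in M1 by 1.55 log2 units (adjusted p = 0.0345 in limma), and the other 8 did not pass. Of 12 proteases that activate MMPs and their receptors, 1 rose and 1 fell in M1. The proprotein convertase gene Pcsk7 rose by 0.88, and St14, the gene of matriptase, fell by 0.98. Of the 8 ADAM genes tested Adam19 fell by 2.83 (adjusted p = 0.0105), and of 8 ADAMTS genes Adamts1, Adamts2 and Adamts10 fell, with log2 differences of -1.90, -1.69 and -1.91.

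Of 10 genes for proteins that bind or clear MMPs, 3 rose and 4 fell in M1. Lcn2, whose product neutrophil gelatinase-associated lipocalin binds MMP9, rose by 5.08 log2 units (adjusted p = 0.0122 in limma), whereas Mmp9 missed the threshold. The integrin gene Itgb3 rose by 2.67. Cav1 fell by 1.63, Lrp1, an endocytic receptor that clears MMP and TIMP complexes, by 0.94, Itgav by 0.83 and Cd44 by 0.80.

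Of 19 genes for matrix proteins that MMPs cut, 1 rose and 8 fell in M1, with a median difference of -0.98. Fn1, the gene of fibronectin, fell by 3.16 (adjusted p = 0.00824 in limma) and M1 minus M2 was -6.34. Vcan, the gene of versican, rose by 3.55 (adjusted p = 0.012), and Col1a1 and Col3a1 fell by 1.73 and 1.65. Lists overlap: Col1a1, Col1a2, Col3a1, Col5a1 and Dcn are also stromal markers, Vcan a monocyte marker, Lcn2 a neutrophil marker and Ctsk, on the list of activating proteases, an osteoclast marker. Of 16 factors known to act on MMP and TIMP promoters, 4 rose, among them Junb by 1.48, Ets2 by 1.22 and Spi1 by 1.06, and 2 fell. Fosl2, a partner of Jun in AP-1, fell by 1.16 (adjusted p = 0.0345), and Irf4 was at least 3.83-fold lower in M1 than in M0 and at least 117-fold lower than in M2. The other AP-1 genes in the list (Fos, Fosb, Fosl1, Jun and Jund) did not pass.

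The genes whose profile over the 6 arrays was most like that of the 3 genes that rose were Osgin2 and Rab11fip1 for Mmp13 (root mean square differences of 0.103 and 0.151 log2 units) and Sirpb1b, Aoah and Spata13 for Mmp14 (0.150, 0.174 and 0.252). For Timp1 the closest probe with a gene symbol was that of Gpr141 (0.280). Timp2 was most like Mical1 and Rnf180 (0.193 and 0.212), and Mmp19 most like Ttc27, Ptger2 and Mvd (0.154, 0.206 and 0.212). No gene came as near to Mmp12, whose nearest with a symbol were Ltc4s and Cd109 (0.497 and 0.597).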

How the data were processed

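RNA of 6 macrophage cultures was hybridised to 1-colour Agilent arrays, 1 per genotype and state. Per the file headers, the authors deposited scanner intensity values from Agilent Feature Extraction 10.7.3.1, with a processed signal from which background and spatial trend were removed on each array, and which was not scaled between arrays. The submitters' processing notes name the same program. The authors also deposited a log2 table of the same arrays (column medians 5.39 to 5.41), used as an alternative; its centring is not stated in the labels or headers.

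Control spots and outlier spots (79 to 164 of 43379 per array) were left out and spots of a probe averaged. The 37 of 41174 probes without a value on every array were dropped. Levels are log2 of the processed signal over its 75th percentile on that array, from the brightest probe of a gene; further probes are given beside it. Genes whose probe was well above background on 2 or more arrays were fitted with limma 3.58.1 in R 4.3.3 by an additive model of state and genotype (2 residual df, prior df 1.88), with Benjamini-Hochberg adjustment over all 19044 genes and a threshold of 0.05. The residual holds both array noise and any genotype difference that changes with state. Within a state KO minus WT is 1 array against 1 and has no test. Where a gene was dim on all arrays of a group, its fold is a bound, with each dim array set to the lowest signal called above background there, or to the probe's signal if higher. The test was checked on simulated data. The number of arrays limits the precision.

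The named genes are the 9 members, genes of fixed lists (up to 4 per list among those that passed, by size, and more where all that passed are named), cell type markers and the 3 nearest genes by profile. Members and lists were chosen with earlier results of these data known. Probe coordinates are those of the files (mm9), and exons and UTRs were not assigned; promoters are RefSeq's on GRCm38.p6, and proteins were not analysed here. Alternatives were median centring, quantile normalization, normexp, the authors' table, other probe and filter rules, the intensity trend, the slide as a block and leaving out each array. Some genes of the lists are not reported here.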

Additional observations from a re-analysis of the deposited data

Results flagged for a closer look

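For 2 genes the WT and KO arrays moved in opposite directions under the same treatment; these are differences of 1 array against 1, and the difference between the genotypes was not tested. M1 minus M2 of Mmp9 was -0.11 in WT and 0.35 in KO, while its further probe gave -1.01 and -0.10, and the WT value was above 0 with median centring (0.41), quantile normalization (0.24), normexp correction (0.07) and the authors' table (0.24). M1 minus M0 of Mmp19 was 0.27 in WT and -0.40 in KO. Groups of 1 array allow no check for an outlying sample.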

How the results depend on the processing

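No paired analysis was possible because each group has 1 array and the labels give no replicate numbers. For M1 against M0 the 7 called genes also passed with median centring, quantile normalization, the authors' table, the mean of all probes, the stricter filter and the intensity trend. Of them 5 passed with normexp correction (Mmp2 and Mmp12 lost) and 5 with no filter (Mmp12 and Timp3 lost). With single arrays left out (1 residual df), 0 to 6 of the 9 genes passed for M1 against M0 and 0 to 5 for M1 against M2, as 0 to 5439 and 0 to 4794 of all genes did, and no called gene changed sign. For M1 against M2, 4 genes passed with the slide as a block, 5 with normexp correction (Mmp2 and Mmp19 lost) and 6 with median centring (Mmp19 lost). For M2 against M0 the count of genes called went from 0 to 1 (Mmp14) with median centring, quantile normalization, the authors' table and the stricter filter, and to 2 with the intensity trend. KO minus WT of Mmp2 in M0 turned from -1.32 to 0.12 with normexp correction, where the median of all genes was 0.36. The cause of these changes was not tested. Over all genes M2 against M0 had 16 calls, against 478 with median centring, 138 with quantile normalization, 153 with the authors' table, 275 with the stricter filter, 1083 with the intensity trend and 0 with normexp correction, no filter or the slide as a block. Normexp correction called 1292 genes for M1 against M0 (4872 otherwise) and 1360 for M1 against M2 (4832), and the slide as a block 2210 for the latter. Median centring moved the median of all genes from 0.03 to 0.26 for M1 against M0 and from -0.18 to 0.15 for M1 against M2, and the genes higher and lower from 2201 and 2671 to 2698 and 1893 and from 2209 and 2623 to 2884 and 1594; normexp correction moved the first median to -0.35. An alternative chosen after seeing the data left out the WT M0 and KO M1 arrays together. No genotype then has both an M0 and an M1 array, so its values run through the M2 arrays and across slides. They have no test: M1 minus M0 was then -3.92 for Mmp12, -4.13 for Timp2, 3.19 for Timp1, 2.32 for Mmp14, 1.94 for Mmp13, -1.98 for Mmp2 and -1.41 for Timp3.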

Other observations

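Between the polarized states, which share the M1 arrays with the comparison against M0, further genes of the protease system differed in limma. Decorin (Dcn), a collagen-binding proteoglycan, was higher in M1 than in M2 by 2.01 log2 units (adjusted p = 0.0219), and Pcsk7 by 0.86. Furin, the convertase that activates Mmp14, had a log2 difference of -0.95 (adjusted p = 0.0441) and St14 of -1.26. The sheddase gene Adam10 had -1.01, Adam19 -1.87 and the aggrecanase gene Adamts5 -1.41. Mmp11 had -1.95 and Fosl2 -2.95.

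Dendritic cell markers had summed signals of 0.25 to 1.20 times the 75th percentile over the 6 arrays. Endothelial markers had 19.8 and 22.5 on the M2 arrays and 3.65 to 7.06 on the others, most of it from Vwf (levels 4.26 and 4.46 in M2), while Kdr and Emcn had M2 minus M0 values of -1.82 and -1.92 and Cdh5 of -0.04.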
